A study of Caenorhabditis elegans with 3 samples.

Results

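The 10 genes described here are irg-4, irg-5, dod-3, dod-6, dod-17, dod-19, dod-21, dod-22, dod-23 and dod-24 of Caenorhabditis elegans. They were picked by name, with their log2 ratios on these arrays already known, so those ratios are given as a description with no test. Each of the 10 has 1 spot with a value on every array, among the 15119 genes measured on all 3 arrays. Each array set RNA of hermaphrodites at the late L4 larval to young adult stage, from prep 1, 2 or 3 in channel 2, against a mixed wild-type reference RNA in channel 1. The labels state neither the strain of the staged animals nor the makeup of the reference. They also do not say whether the preps were separate cultures, so the spread between preps may be partly technical. Nor do the labels say which channel is on top of the ratio. Positive values are read here as more RNA in the staged animals than in the reference, which is likely because these fill channel 2 throughout, and all signs turn if that reading is wrong.

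Symbols beginning with irg mark infection response genes, and symbols beginning with dod mark genes found downstream of the transcription factor DAF-16. DAF-16 enters the nucleus when insulin-like signalling through the receptor DAF-2 is low. Genes such as dod-3 are known to be raised in that state, while dod-17 to dod-24 were found lowered in it. The worm has no adaptive immune system, and its intestine meets ingested bacteria directly. There a p38 MAP kinase cascade drives many defence genes, irg-4 and irg-5 among them. Of the 10 genes, irg-4, irg-5, dod-17, dod-21, dod-22 and dod-24 are known to encode proteins with a CUB-like domain. No domain annotation was used here, and whole-animal RNA carries no tissue label, so neither the domain nor the intestinal origin was checked. In whole animals, fewer cells of a type and less RNA per cell cannot be told apart.

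The 10 genes spread over most of the range of the arrays. On the mean log2 ratio 6 of them stood above 0 and 4 below, and 7 of 10 were at least 2-fold from the reference, against 14.9% of all genes. Because the genes were chosen on this contrast, nothing is read from that share. Their median was 0.92, beside -0.04 for all genes. Taken prep by prep, the median of the 10 came to 0.92, 2.13 and -0.19 for preps 1, 2 and 3. The median of all genes lay between -0.09 and 0.04. A median of 10 widely spread genes moves more readily than a median of all genes, so the size of these moves is not compared. Without prep 2 the median of the 10 means was 0.26, and without prep 3 it was 1.57.

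**Figure D1:**
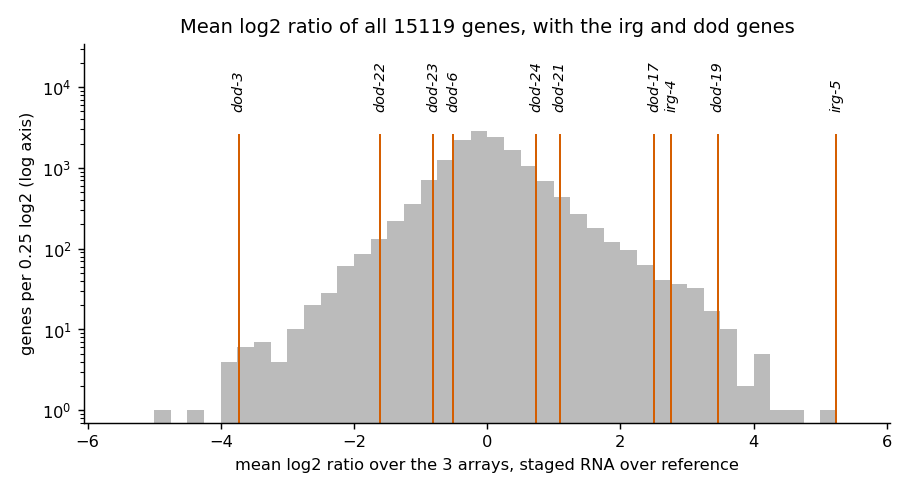
Histogram of the mean log2 ratio of all 15119 genes over the 3 arrays, in bins of 0.25 with a logarithmic count axis. Vertical lines mark the 10 irg and dod genes, which run from dod-3 at -3.73 to irg-5 at 5.24.

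Both infection response genes stood high. Preps 1, 2 and 3 gave irg-5 log2 ratios of 5.78, 4.54 and 5.40, averaging 5.24 ± 0.64 (SD, n = 3 throughout). It was the highest of all 15119 genes, and on a linear scale its ratio ran from 23.2-fold in prep 2 to 55.1-fold in prep 1. For irg-4 the log2 ratios were 2.70, 2.71 and 2.86 in the same order, averaging 2.76 ± 0.09. It was the steadiest of the 10 genes over the preps, with a range of 0.16, and it ranked 106 from the top.

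Among the dod genes, dod-19 and dod-17 were high in all preps. Log2 ratios of 3.74, 3.56 and 3.08 were measured for dod-19 in preps 1, 2 and 3, averaging 3.46 ± 0.34, and it ranked 24 from the top. For dod-17 they were 2.88, 3.02 and 1.62, averaging 2.51 ± 0.77, with prep 3 clearly lowest. Its linear ratio was 8.13-fold in prep 2 and 3.07-fold in prep 3.

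The neighbouring genes dod-21 and dod-24 differed in sign between preps. Preps 1, 2 and 3 gave dod-21 log2 ratios of 0.65, 2.90 and -0.27, averaging 1.09 ± 1.63. By SD over the 3 arrays it ranked 65 from the largest of all genes, and the ratio differed 9.05-fold between preps 2 and 3. For dod-24 the log2 ratios were 1.20, 1.54 and -0.53, averaging 0.74 ± 1.11. Both genes were highest in prep 2 and below the reference in prep 3. Without prep 2 the mean of dod-21 was 0.19 and that of dod-24 was 0.33. Without prep 3 they were 1.78 and 1.37.

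The 4 remaining genes were below the reference in every prep. Log2 ratios of -4.97, -3.12 and -3.11 were measured for dod-3 in preps 1, 2 and 3, averaging -3.73 ± 1.07, and it ranked 8 from the lowest gene. On a linear scale its ratio was 31.3-fold under the reference in prep 1 and 8.70-fold under it in prep 2. For dod-22 they were -1.95, -0.89 and -1.99, averaging -1.61 ± 0.62, with prep 2 nearest to the reference. Smaller shifts were seen for dod-23, at -0.18, -1.34 and -0.90 with a mean of -0.81 ± 0.58, and for dod-6, at -0.95, -0.47 and -0.12 with a mean of -0.51 ± 0.42. Prep 1 was nearest to the reference for dod-23 and farthest from it for dod-6. Without prep 1 the mean was -1.12 for dod-23 and -0.29 for dod-6, and without prep 2 that of dod-23 was -0.54.

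**Figure D2:**
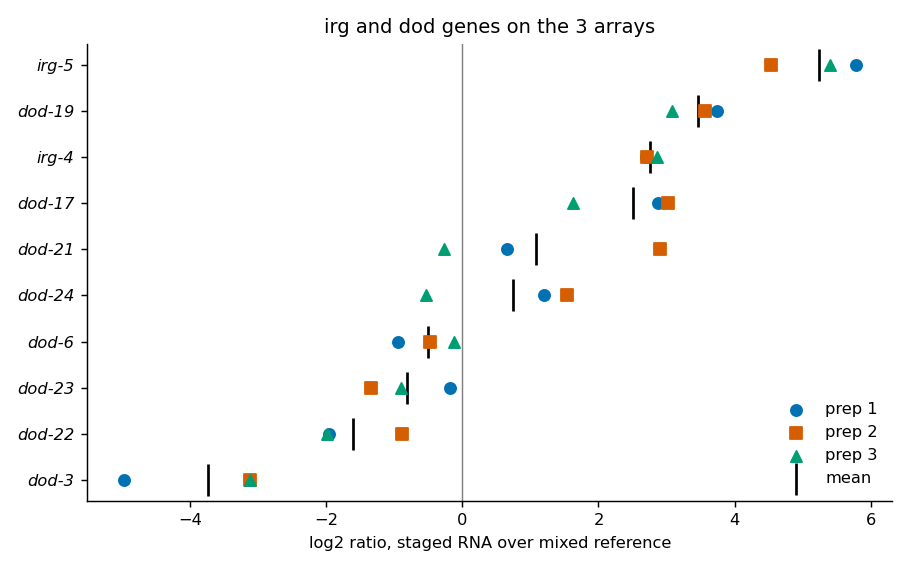
Log2 ratio of staged RNA over the mixed reference for the 10 genes, ordered by mean. Symbols are the 3 preps and the black bar is their mean. The points of dod-21 run from -0.27 to 2.90, while those of irg-4 lie within 0.16 of each other.

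Ordered by mean, 3 of the 9 pairs of adjacent genes were separate in their values over the preps. The lowest value of irg-5, 4.54, lay above the highest of dod-19, 3.74. The lowest value of dod-19, 3.08, lay above the highest of irg-4, 2.86, and the lowest value of dod-22, -1.99, above the highest of dod-3, -3.11. In the other 6 pairs, from irg-4 and dod-17 down to dod-23 and dod-22, the values overlapped over the preps. All genes share the same 3 arrays, and within each array dod-17 lay above dod-21, though only by 3.02 against 2.90 in prep 2. That order turned in prep 2 with print-block centring, at 2.82 against 3.08. The other 5 overlapping pairs changed order between preps. The median SD of the 10 genes was 0.63, beside 0.39 for all genes, and 3 of 10 had an SD above 1, beside 4.15% of all genes. As the genes were chosen with these values known, nothing is read from this difference in spread.

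Of the 10 genes, 4 lie in a row of neighbours on chromosome IV, in the order dod-21, dod-24, dod-22 and dod-17 of the RefSeq gene table. They did not move as a block. The log2 ratio of dod-17 exceeded that of dod-22 by 4.83, 3.91 and 3.61 in preps 1, 2 and 3, a mean of 4.11 ± 0.64, although only 2 genes, F55G11.2 and mbug-1, lie between them. The gene next to dod-21, cld-1, showed the same order of preps, with log2 ratios of 0.66, 2.22 and -0.18. Its mean of 0.90 ± 1.22 did not pass (limma adjusted p = 0.121). Between dod-21 and dod-24 lies C32H11.11, which was lower at -1.23 ± 1.23 (limma adjusted p = 0.0411).

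Farther along the row, 2 of the 26 other measured genes were higher and 3 lower, beside 11.3% and 9.37% of all genes. C32H11.11 stood at -2.62 in prep 1, where dod-21 and dod-24 were above 0, and at -0.80 and -0.28 in preps 2 and 3. On the other side of dod-21, srlf-4 was lower at -1.32 ± 1.28 (limma adjusted p = 0.0334), and srlf-5 at -1.31 ± 1.50 and srlf-6 at -1.27 ± 1.99 did not pass. All 3 srlf genes were lowest in prep 1, at -2.70, -3.04 and -3.57. Without prep 1, C32H11.11 was at -0.54 and srlf-4 at -0.64, and neither passed, nor did they with each array centred on its median or within print blocks, or with limma's robust variance estimate. Near dod-22, F55G11.7 was higher at 0.79 ± 0.22 (limma adjusted p = 0.0396). It no longer passed without prep 1 (0.92), prep 2 (0.74) or prep 3 (0.72). On either side of irg-6, K08D8.5 was higher at 1.30 ± 0.66 (limma adjusted p = 0.00822) and C32H11.3, named after its values were seen, lower at -1.23 ± 0.62 (limma adjusted p = 0.01). Without prep 1 they stood at 1.00 and -0.98, and neither passed.

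**Figure D3:**
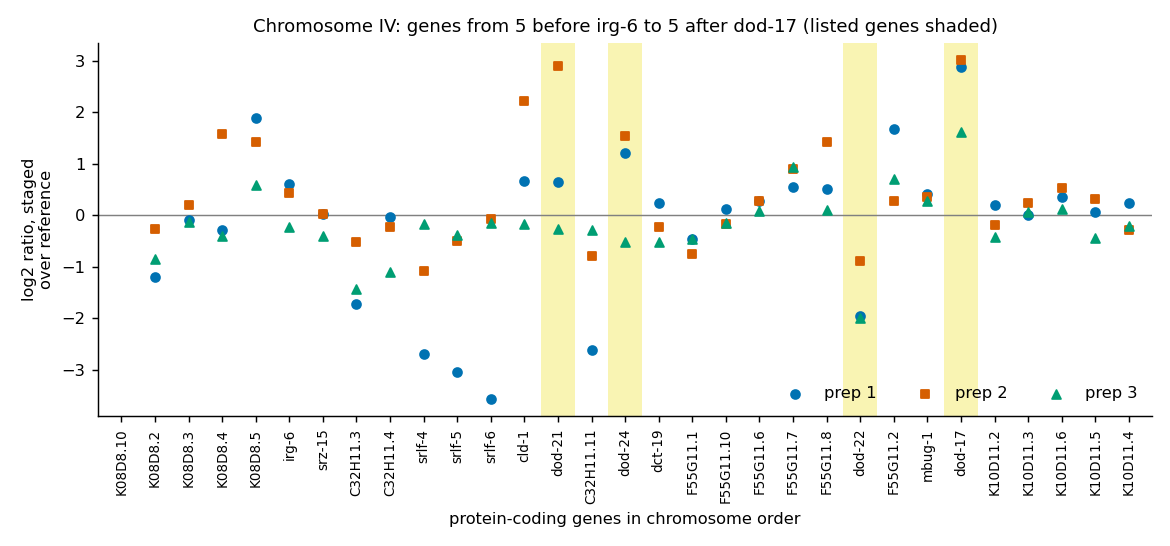
Log2 ratios on the 3 arrays for 31 protein-coding genes in chromosome order, from 5 before irg-6 to 5 after dod-17 on chromosome IV, of which 30 were measured. The 4 listed genes are shaded. dod-17 lies above 0 and dod-22 below 0 in all preps, and the srlf genes and C32H11.11 are low in prep 1.

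On chromosome V, dod-19 and irg-5 each have a gene that was higher immediately beside them. Among the 13 other genes of the stretch around dod-19 and dod-20, 2 were higher and 1 lower, with a median of -0.05. These counts are near the 11.3% called higher and 9.37% called lower among all genes. Immediately beside dod-19 is irg-8, with log2 ratios of 3.98, 2.66 and 3.58 and a mean of 3.41 ± 0.68 (limma adjusted p = 2.55e-05). The log2 ratio of dod-19 differed from that of irg-8 by -0.24, 0.90 and -0.50 in preps 1, 2 and 3, within the spread of the preps. The next gene, Y39D8A.1, was near the reference at 0.08 ± 0.13, and dod-20 after it was higher at 1.09 ± 0.47 (limma adjusted p = 0.0139). Without prep 3, dod-20 was at 0.83 and did not pass. The lower gene was B0554.2, named after its values were seen, at -0.81 ± 0.28 (limma adjusted p = 0.0398). Its call was lost without prep 1 (-0.71), prep 2 (-0.97) or prep 3 (-0.74), and with centring of each array on its median or within print blocks.

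Of the 10 genes flanking irg-5, 5 were higher and 0 lower by limma, beside 11.3% and 9.37% of all genes. Below the reference lay fbxa-181 at -0.71 ± 0.30 and F35E12.2 at -0.67 ± 0.30. Neither passed (limma adjusted p = 0.0657 and 0.0791), though both had an unadjusted p under 0.05. On one side dct-17 stood at 1.83 ± 0.33 (limma adjusted p = 4.86e-04) and F35E12.6 at 1.81 ± 0.35 (limma adjusted p = 5.60e-04). On the other side F20G2.2 was at 1.43 ± 0.62, F35E12.10 at 0.97 ± 0.52 and F20G2.1 at 0.82 ± 0.27. The log2 ratio of irg-5 exceeded that of dct-17 by 3.41 ± 0.78. Without prep 1, F35E12.10 was at 0.67 and did not pass, and F20G2.1 did not pass without prep 1 (0.70), prep 2 (0.96) or prep 3 (0.78).

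**Figure D4:**
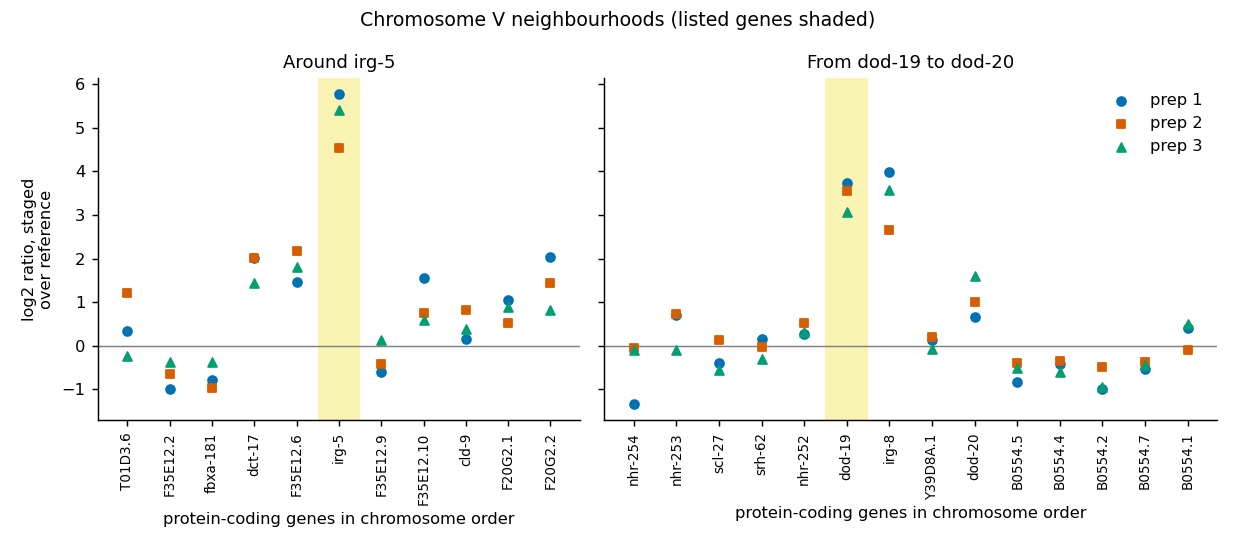
Log2 ratios on the 3 arrays for protein-coding genes in chromosome order, around irg-5 (left) and from dod-19 to dod-20 (right), each with 5 genes on either side. Listed genes are shaded. The points of irg-5 lie above all its neighbours, and irg-8 lies level with dod-19.

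Counted over the 5 nearest genes on each side of all 10, 70 neighbours were tested, of which 12 were higher and 4 lower. That is 22.9%, close to the 20.7% called among all 15119 genes by limma with Benjamini-Hochberg adjustment at 0.05, and the median of the neighbours was -0.02. The other neighbours that passed lie near irg-4, dod-6 and dod-23. By irg-4 they were the collagen gene col-130 at 1.92 ± 1.01 and acl-13 at 1.40 ± 0.32, and by dod-23 it was drd-1 at 1.83 ± 0.57. By dod-6 they were chc-1, the clathrin heavy chain gene, at 1.05 ± 0.48, epac-1 at -0.76 ± 0.18 and dbd-12 at -1.20 ± 0.58. Without prep 1, chc-1 was at 0.79 and dbd-12 at -1.04 and neither passed, and the call of epac-1 was lost on leaving out prep 1 (-0.86), prep 2 (-0.68) or prep 3 (-0.75), or with each array centred on its median (-0.73). Of the 7 measured genes around dod-3, which ranged from -0.59 to 0.12, none passed by limma. On leaving out prep 1, 8 of the 70 were called, all higher.

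The remaining irg and dod genes on the array gave 3 higher, 0 lower and 4 not passing of 7 tested. Of all genes 11.3% were called higher and 9.37% lower. Beside irg-8 and dod-20, irg-7 was higher at 1.99 ± 0.34 (limma adjusted p = 2.85e-04), with values of 2.02, 2.32 and 1.64. The lowest were irg-2 at -0.63 ± 0.64, irg-1 at -0.42 ± 1.16 and dod-18 at -0.03 ± 0.33, and none of these passed. Both irg-1 and irg-2 are known to respond to infection through the factor ZIP-2 rather than p38. At an unadjusted p under 0.05, 1 of the 7 was lower. The gene irg-3 had no value in prep 3 and stood at -2.37 and -0.41 in preps 1 and 2, so it is not among the 7. In a fit that also took genes with a value on 2 arrays, irg-3 was lower at -1.39 (limma adjusted p = 0.0455), which gave 3 higher and 1 lower of 8.

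Defence effectors were found on both sides of the reference, as were the 10 genes. Of 38 tested, 7 were higher, 9 lower and 22 did not pass, and the median was -0.25. The share called was 42.1%, beside 20.7% of all genes. Because the lists were chosen with earlier results of these data known, nothing is read from their shares. The highest were irg-8, given above, sysm-1 at 1.53 ± 0.35 and K08D8.5 at 1.30 ± 0.66, the last 2 known as targets of the p38 cascade. The lowest were the C-type lectin gene clec-60, with a mean of -3.60 ± 0.84, the lysozyme gene lys-3 at -2.38 ± 0.66 and C17H12.8, another known p38 target, at -1.99 ± 0.10. Without prep 1, 4 were higher and 7 lower, and K08D8.5, at 1.00, was among the calls lost.

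Regulators of the p38 cascade and of intestinal defence had means between -1.18 and 0.41. Of 20 tested, 0 were higher, also at an unadjusted p under 0.05, 2 were lower and 18 did not pass by limma, with a median of -0.12. The p38 kinase gene pmk-2 was lower at -1.18 ± 0.40 (limma adjusted p = 0.00756), as was tir-1, which encodes the adaptor at the head of the cascade, at -0.95 ± 0.27 (limma adjusted p = 0.0192). Without prep 1 they stood at -1.02 and -0.80 and neither passed. The phosphatase gene vhp-1 at -0.50 ± 0.64 was the next lowest. The phospholipase genes plc-3 at 0.41 ± 0.52 and egl-8 at 0.12 ± 0.49, and atf-7 at 0.31 ± 0.26, whose product is the transcription factor below p38, were highest, and none passed.

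Genes that DAF-16 is known to raise were lower or did not pass, and the mean of dod-3 lay between the 2 lowest of them. Of 23 tested, 8 were lower, 15 did not pass and 0 were higher by limma, with 1 higher at an unadjusted p under 0.05. Their median was -0.45, and 34.8% were called, beside 20.7% of all genes. The small heat shock gene hsp-12.6 at -4.87 ± 0.26, the metallothionein gene mtl-1 at -2.95 ± 0.42 and hsp-12.3, another small heat shock gene, at -2.86 ± 0.33 were lowest. The highest, gst-4 at 0.62 ± 0.25, mtl-2 at 0.37 ± 0.16 and hsp-16.1 at 0.23 ± 0.50, did not pass. The values of hsp-12.6 and hsp-12.3 were already known when the list was made.

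Of 21 genes of the insulin pathway, 3 were lower, 0 higher and 18 did not pass by limma. At an unadjusted p under 0.05, 1 was higher, and the median was 0.00. The share called was 14.3%, all of it lower. Among all genes 20.7% were called, 11.3% higher and 9.37% lower. The kinase gene akt-2 was lower at -1.42 ± 0.28 (limma adjusted p = 0.00203), as were the receptor substrate gene ist-1 at -0.93 ± 0.46 and the transcription factor gene pqm-1 at -0.74 ± 0.02. Without prep 1, ist-1 was at -0.69 and did not pass, nor did it with print-block centring. The call of pqm-1 was lost without prep 1 (-0.75), prep 2 (-0.73) or prep 3 (-0.74), and with each array centred on its median (-0.70). The transcription factor gene daf-16 itself was at -0.01 ± 0.07 and the receptor gene daf-2 at -0.28 ± 0.62, and neither passed. The 14-3-3 genes par-5 and ftt-2 at 0.74 ± 0.42 and 0.53 ± 0.13 and the kinase gene age-1 at 0.50 ± 0.61 were highest and did not pass.

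**Figure D5:**
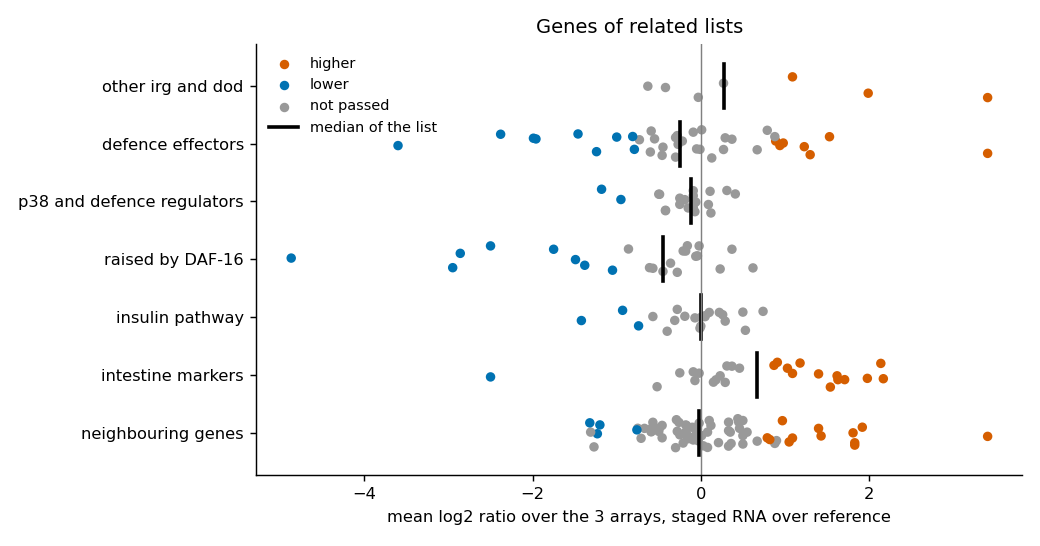
Mean log2 ratio of each tested gene in 7 related lists, coloured by limma's call at an adjusted p of 0.05, with the median of each list as a black bar. Defence effectors reach from -3.60 to 3.41, and intestine markers have the highest median, 0.67.

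Intestine markers are set beside the 10 genes, whose own origin was not checked. Of 26 markers tested, 13 were higher, 1 lower and 12 did not pass, with a median of 0.67. That is 53.8% called, beside 20.7% of all genes. The intestinal actin gene act-5 at 2.17 ± 0.24, the proton pump gene vha-6 at 2.14 ± 0.47 and the intermediate filament gene ifc-2 at 1.98 ± 0.41 were highest. The ferritin gene ftn-1, at -2.50 ± 0.36, was lower, and gem-4 at -0.52 ± 0.40 and the GATA factor gene elt-7 at -0.25 ± 0.04 did not pass. The other intestinal GATA factor gene, elt-2, stood at -0.09 ± 0.33. By prep the median of the intestine markers was 0.66, 0.80 and 0.51. It was highest in prep 2, as were dod-21, dod-24, dod-22 and, by only 3.02 against 2.88 in prep 1, dod-17. The rest of the 10 genes were not: irg-5, dod-19 and dod-23 were highest in prep 1, and irg-4, dod-6 and dod-3 in prep 3. A median of 26 markers moves less than a single gene, so the size of these moves is not compared. Single markers also moved widely, such as asp-1 at 1.43, 2.91 and 0.79 and clec-63 at 1.56, 2.13 and 0.50. Of the 26 markers, 11 were highest in prep 2, 8 in prep 1 and 7 in prep 3. Of all 15119 genes, 4433 were highest in prep 2, 5726 in prep 1 and 4960 in prep 3.

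Marker lists of other tissues moved between preps as well. The median of 12 germline markers was 2.02, 1.19 and 0.54 in preps 1, 2 and 3, and 11 of 12 were highest in prep 1. Prep 1 was also highest for 5726 of all 15119 genes. For 11 epidermis markers it was -0.25, 0.05 and 0.23, for 9 pharynx markers -1.01, 0.03 and -0.33, and for 4 coelomocyte markers 0.23, -0.09 and 0.46. Over all tests, 7 germline markers were higher and 0 lower, 4 epidermis markers were higher and 1 lower, 1 pharynx marker was higher and 3 lower, and 0 coelomocyte markers passed by limma (1 at an unadjusted p under 0.05). At an unadjusted p under 0.05, 11 germline markers were higher and 0 lower. For the epidermis markers 4 were then higher and 5 lower, and for the pharynx markers 1 higher and 5 lower. Among all genes 20.7% were called, beside 58.3% of the germline, 45.5% of the epidermis and 44.4% of the pharynx markers. The part of the shifts between preps in the values of the 10 genes was not tested.

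Centring by an assumed position on the array changed some of these values. The spots were divided in order into 32 equal runs, taken as print blocks. This division is an assumption, since no source states the layout, and it was not checked against the data. Of the 10 genes, dod-3, dod-21 and dod-24 lie in 1 run and dod-17 and dod-22 in another. With each array centred within these runs, dod-21 had log2 ratios of 0.96, 3.08 and 0.12 and dod-24 of 1.51, 1.72 and -0.13 in preps 1, 2 and 3. The value of dod-21 in prep 3 then lay above 0, and prep 2 stayed highest and prep 3 lowest for both genes. For dod-17 the centred values were 2.95, 2.82 and 2.08, so that prep 1 came out highest. The mean of irg-5 became 5.48 and that of dod-3 became -3.44.

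The genes closest in value to irg-5 and dod-3 over the 3 arrays were sought by Euclidean distance between their log2 ratios. As irg-5 was the highest gene and dod-3 ranked 8 from the lowest, only genes with extreme ratios could be close. The nearest to irg-5 were the collagen genes col-129 at a distance of 1.71, col-139 at 1.75 and col-81 at 2.27, followed by msp-33, a major sperm protein gene, and msd-4 at 2.52. The nearest to dod-3 were the collagen genes col-158 at 0.71 and col-164 at 0.88, acs-2, which encodes an acyl-CoA synthetase, at 0.94, T14B1.1 at 1.01 and T22F3.11 at 1.03. Closeness did not mean the same order of preps. In prep 2 irg-5 and col-139 were lowest, while col-129 and col-81 were highest there, and msp-33 and msd-4 were lowest in prep 1. Each distance rests on 3 arrays that share a reference RNA and is a description only.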

How the data were processed

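The authors deposited 1 log2 ratio per spot for 20000 spots on each of 3 two-channel arrays. Neither the dyes nor any background correction, filter or normalization is given in the sources used here. The log2 base was checked: 2 raised to the values gave whole multiples of 0.001, to within 0.01 of a step, for 100% of ratios under 0.6, against at most 3.10% with a natural log. Array medians were 0.040, -0.085 and -0.065, and whether the arrays were centred is unknown. Spots were named through the platform annotation and RefSeq gene identifiers (WBcel235). The annotation gave 1 gene for 15655 spots, several for 198, which were not used, and none for 4147. Repeated spots were averaged, and genes with a value on all 3 arrays were tested against 0 with limma 3.58.1 in R 4.3.3 (lmFit, eBayes, two-sided, Benjamini-Hochberg at 0.05). The reference is 1 RNA, so its spread is left out. Without intensities, no filter on dim or saturated spots was possible, and precision is limited by having 3 arrays. Pairs of arrays correlated across genes with r of 0.65 to 0.68, over genes that are not independent.

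The 10 genes and all lists were chosen with earlier results of these data known. The text names every one of the 10, the 3 highest and 3 lowest of each related list, passing genes of the p38 and insulin lists, passing neighbours and the 5 nearest genes by distance. A few genes stand in several lists, such as irg-8. On simulated data for 15119 genes, the test recovered 100% of 50 genes shifted by 2 and 60% of 50 shifted by 1 on the log2 scale. There 14919 genes were unshifted, while 20.7% of genes were called in the data. The Benjamini-Hochberg cut-off was therefore stricter in the simulation, and its shares do not carry over to the data. Alternatives changed the centring, scale, variance estimate, missing values and repeated spots, or left out a prep.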

Additional observations from a re-analysis of the deposited data

How the results depend on the processing

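Of the 10 genes, none changed the sign of its mean log2 ratio under array centring or print-block centring. Scaling between arrays or omission of a prep could turn only dod-21 and dod-24, whose signs were mixed over the preps, and turned neither. Use of a single spot per gene could not change the 10 genes, which have 1 spot each. Leaving out 1 prep at a time gave 1763 to 2901 calls over all genes against 3126, 8 to 17 of the neighbours against 16, 0 to 2 of the p38 and defence regulators against 2, and 1 to 3 of the insulin pathway genes against 3. The low end came without prep 1 in each case (limma; 3 p38 and defence regulators had an unadjusted p under 0.05 there). These fits have fewer arrays. Centring on the median moved the share of higher calls among neighbours to 92.3% and print-block centring to 86.7%, against 75.0%; the robust variance gave 85.7%. For insulin pathway genes print-block centring, or leaving out prep 3, gave 1 higher and 2 lower, against 0 and 3. Of the 58 called genes of the 7 lists, 23 were no longer called without prep 1, 15 without prep 2 and 9 without prep 3, while 8 were lost with median centring, 5 with print-block centring and 3 with the robust variance. A list of other CUB-like genes was planned but not run, because the tables used here give no domain names. No paired analysis was possible because there is 1 group of arrays.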

Other observations

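K08D8.4 lies in the same row of neighbours on chromosome IV as dod-21 and cld-1. Its log2 ratios were -0.29, 1.57 and -0.40 in preps 1, 2 and 3, above 0 in prep 2 alone. Both dod-21 and cld-1 were also highest in prep 2, but stood above 0 in prep 1 too, at 0.65 and 0.66. Other genes of that row were highest in prep 2 as well, such as F55G11.8 at 0.50, 1.42 and 0.10. K08D8.4 and F55G11.8 were singled out after their values were seen. Their means of 0.29 ± 1.11 and 0.67 ± 0.67 did not pass (limma adjusted p = 0.617 and 0.127).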
